A study of Mus musculus with 24 samples.

Results

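Levels of 9 mouse transcription factor genes of the facial mesenchyme and ectoderm were followed in the developing jaws: Alx1, Alx4, Twist1, Twist2, Prrx1, Prrx2, Tfap2a, Tfap2b and Tfap2c. They are 9 of 18193 genes on the array, and all 9 were among the 13942 genes that were tested. The probe sets annotated to these symbols alone number 20 of 45101, and the one with the highest mean over all arrays stands for its gene. Total RNA came from the jaws of C57B6 embryos at embryonic day 14.5, when the palate forms and the first jaw bones ossify. Wnt1cre;Alk5fl/+ and Alk5fl/fl mice were crossed, so the floxed allele is present in mutants and in littermate controls alike. A cleft palate with a calvarial defect marked the mutant embryos. The control embryos' own Cre and Alk5 genotypes are not given. Wnt1-Cre acts in the neural crest lineage, so ectoderm, muscle, blood vessels and blood cells of the mutants should keep Alk5, a type I receptor for TGF-beta encoded by Tgfbr1. Each jaw was cut into a distal and a proximal end, which gave 8 groups of 3 arrays: control and mutant distal mandible, proximal mandible, distal maxilla and proximal maxilla. Whether replicate arrays stand for different embryos or litters is not stated, and the p-values speak only for the array-to-array spread, which may be technical in part. Sex-linked signals, given below, differ within each group, so its arrays do not all come from 1 sample.

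The factors belong to 4 families. Alx1, Alx4, Prrx1 and Prrx2 are paired-related homeodomain proteins of the facial and limb mesenchyme, and loss of Alx or Prrx genes causes clefts and jaw defects. Twist1 and Twist2 are basic helix-loop-helix proteins that pair with E proteins at E-box motifs and hold mesenchyme back from becoming bone. Tfap2a, Tfap2b and Tfap2c encode AP-2 proteins, which act in neural crest and also in surface ectoderm and its epithelia.

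The start regions of Twist1, Twist2 and Tfap2b are shown because these genes gave the differences that the results turn on. Each sequence holds the 250 bases before the start of the RefSeq transcript on the plus strand of GRCm38.p6, with capitals for matches to the AP-2 motif GCCNNNGGC or the homeodomain motif TAATTA. Twist1 lies at chr12:33957421-33957670, Twist2 at chr1:91801211-91801460 and Tfap2b at chr1:19211804-19212053.

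Twist1: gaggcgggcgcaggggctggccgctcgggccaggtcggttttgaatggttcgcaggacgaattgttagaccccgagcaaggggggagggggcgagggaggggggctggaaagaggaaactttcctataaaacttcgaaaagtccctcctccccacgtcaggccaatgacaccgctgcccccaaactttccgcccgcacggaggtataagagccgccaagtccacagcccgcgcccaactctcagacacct

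Twist2: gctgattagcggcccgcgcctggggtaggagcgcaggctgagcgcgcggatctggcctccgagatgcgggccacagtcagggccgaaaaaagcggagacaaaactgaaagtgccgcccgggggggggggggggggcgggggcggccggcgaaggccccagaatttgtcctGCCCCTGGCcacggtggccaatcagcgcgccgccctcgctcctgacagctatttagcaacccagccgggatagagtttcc

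Tfap2b: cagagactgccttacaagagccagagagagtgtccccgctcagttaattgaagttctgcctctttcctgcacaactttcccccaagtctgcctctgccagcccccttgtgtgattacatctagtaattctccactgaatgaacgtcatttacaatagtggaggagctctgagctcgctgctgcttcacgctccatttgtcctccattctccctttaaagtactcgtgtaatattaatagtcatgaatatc

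RefSeq start regions were matched for 6 of the 9 genes. Those of Alx1, Alx4 and Tfap2c were not analysed here. Both strands were searched, and none of the matches named here overlap. Twist2 held 1 AP-2 match, GCCCCTGGC, from -80 to -72, a motif present in 13.7% of the 32851 start regions of that length. Twist1 and Tfap2b held no match to GCCNNNGGC or TAATTA, the latter present in 4.84% of all start regions. The E-box CANNTG, the motif bound by Twist proteins, occurred in 66.2% of start regions and in that of Tfap2b from -58 to -53. The SMAD motif CAGAC, found in 42.2%, occurred in Twist1 from -9 to -5 and in Tfap2b from -165 to -161. G and C made up 62.4% of the Twist1 sequence, 68.8% of Twist2 and 46.4% of Tfap2b, against a median of 52.4% over all start regions. These matches describe letters only.

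Levels are log2 RMA signals, in which 1 unit is a doubling. They allow a probe set to be compared between arrays but not with another probe set. Array medians lay between 7.03 and 7.12. Each array correlated with the others of its group at a mean r of 0.9688 to 0.9943. Mutant distal maxilla 3 and mutant proximal maxilla 3 stood apart: each correlated better with the arrays of a mutant mandible group (0.976 and 0.9811) than with its own (0.9725 and 0.9688). Results that depend on these arrays are given with and without them. Xist and Y-linked RNA were both present on 8 mutant arrays, those numbered 1 and 3 in every region, and on 0 control arrays. Whether these arrays hold pooled embryos is not stated. In every region mutant 2 and control 1 had high Xist alone, and controls 2 and 3 had high Y-linked signal alone. In the distal mandible controls, for instance, Xist read 13.53, 6.34 and 6.55 and the Y-linked mean 3.97, 9.43 and 9.61. The labels name the compartments as bone. The bone markers tested were well above the filter level in all control groups, at a mean of 9.57 to 12.6 per array over 6 genes. The 3 probe sets of Tgfbr1 gave no lower signal in mutants: the main one read 11.92 to 12.36 on control arrays and 12.20 to 12.57 on mutant arrays. Averaged over the regions it was higher in mutants by 0.26 ± 0.04 SE (limma adjusted p = 0.000146). Whether those probes lie in the deleted part is not given, so they do not check the genotype labels.

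Most of these factors were higher in the mutant jaws, and the distal maxilla was the region in which none passed the test. In the distal mandible 5 of the 9 rose (Alx4, Twist1, Twist2, Tfap2a and Tfap2b), where 8.02% of all tested genes rose. In the proximal mandible 4 of the 9 rose (Twist1, Twist2, Tfap2a and Tfap2c), against 9.56% of all tested genes. In the proximal maxilla 5 of the 9 rose (Alx4, Twist1, Twist2, Prrx1 and Tfap2a), against 5.75%. In the distal maxilla 0 of 9 passed the test, where 1.84% of all tested genes rose. There limma gave unadjusted p-values under 0.05 for Alx4 (0.0068), Prrx1 (0.0102) and Twist1 (0.0344). Without the pair of maxillary arrays that stood apart, Twist2 (-0.96, limma adjusted p = 0.0183) and Prrx1 (0.36, adjusted p = 0.0224) passed there. With array weights Alx4 (0.38, adjusted p = 0.0239) and Prrx1 (0.41, adjusted p = 0.0174) passed there. None of the 9 fell in any region in the fit to all arrays. Genes were tested with limma on all 24 arrays, with Benjamini-Hochberg adjustment over the genes of a comparison, and a gene rose or fell where its adjusted p was under 0.05.

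**Figure D1:**
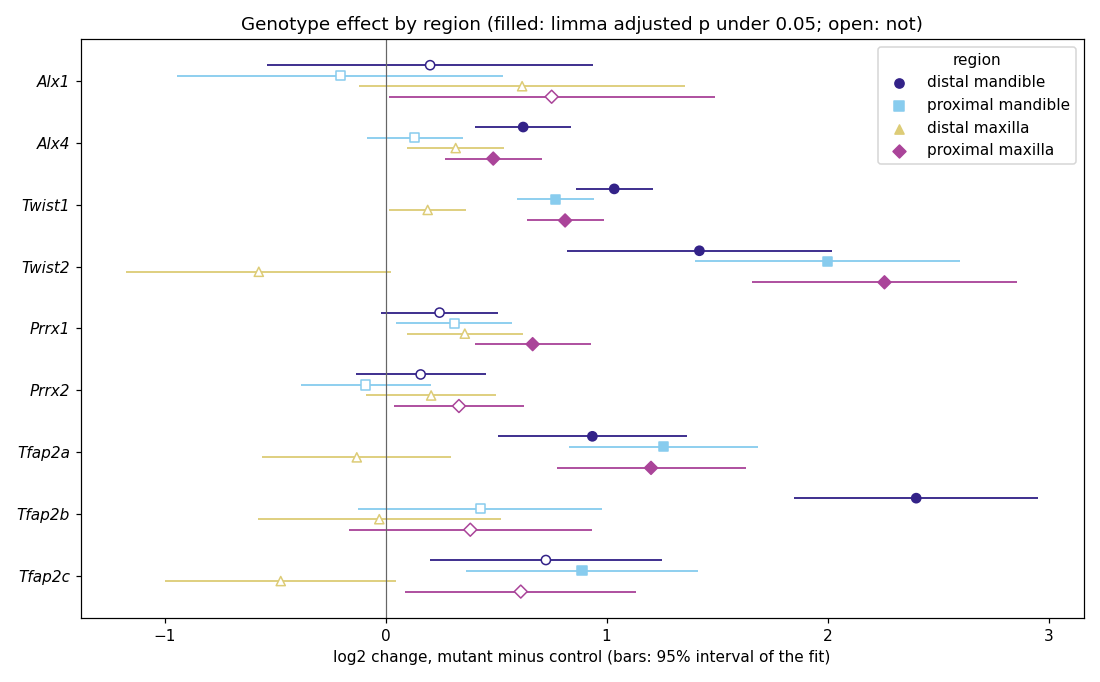
Log2 change of each gene from control to mutant in the 4 regions (points) with the 95% interval of the limma fit (bars); filled points have an adjusted p under 0.05. Tfap2b in the distal mandible lies farthest right of all points, at 2.40, and all distal maxilla points are open.

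Averaged over the 4 regions, 7 of the 9 rose, where 25.2% of all tested genes rose: Alx4, Twist1, Twist2, Prrx1, Tfap2a, Tfap2b and Tfap2c. Alx1 (0.34 ± 0.18 SE, limma adjusted p = 0.133) and Prrx2 (0.15 ± 0.07 SE, adjusted p = 0.094) did not pass. The median change of the 9 was 0.44, and that of all tested genes was 0.02. The comparisons by region share no arrays with each other, and the average uses all of them. Same-numbered arrays of a genotype deviated together over the regions, so the arrays averaged may not be independent. With the replicate number as a random block, Tfap2c did not pass (limma adjusted p = 0.0758), and the other genes that rose still did. Without the same pair of maxillary arrays, Alx1 also passed (0.49, adjusted p = 0.0169).

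Twist1 (probe set 1418733_at), whose loss in one copy causes early fusion of skull sutures, rose in 3 regions. In the distal mandible the control arrays read 10.92, 11.01 and 10.71 and the mutant arrays 11.97, 11.87 and 11.91. The groups lay apart, with a 2.05-fold rise (1.03 ± 0.08 SE on the log2 scale, limma adjusted p = 5.52e-07). Proximal mandible controls read 11.01, 11.04 and 10.91 and mutants 11.93, 11.70 and 11.63, a 1.70-fold rise (adjusted p = 8.41e-06). Proximal maxilla controls read 10.71, 10.49 and 10.72 and mutants 11.38, 11.42 and 11.56, a rise of 1.75-fold (adjusted p = 1.5e-05). Every mutant array was above every control array of its own region, also in the distal maxilla. There the controls read 11.33, 11.31 and 11.24 and the mutants 11.56, 11.41 and 11.48, and the difference of 0.19 (95% interval 0.0155 to 0.364) did not pass after adjustment (adjusted p = 0.2). All 4 mutant group means were above all 4 control group means, with mutant distal mandible highest and control proximal maxilla lowest.

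Twist2 (probe set 1448925_at), the paralogue known from dermal mesenchyme, changed more than Twist1 in the same 3 regions. Control proximal maxilla arrays read 8.67, 8.99 and 9.04 and mutant arrays 11.07, 10.74 and 11.66. This was a 4.78-fold rise (2.26 ± 0.29 SE, limma adjusted p = 9.64e-05). Proximal mandible controls read 9.37, 8.83 and 9.24 and mutants 11.45, 11.10 and 10.88, a 3.998-fold rise (adjusted p = 7.64e-05). Distal mandible controls read 10.18, 9.54 and 10.01 and mutants 11.43, 11.10 and 11.47, a 2.67-fold rise (adjusted p = 0.00241). In these regions the genotypes did not overlap. The distal maxilla differed: its controls, at 11.38, 11.47 and 11.55, held the highest mean of the 8 groups. The mutants there read 10.92, 10.11 and 11.66, so 2 of 3 lay under all controls and mutant 3, one of the arrays that stood apart, lay above them. That difference was -0.57 ± 0.29 SE (adjusted p = 0.256), or -0.96 without both arrays that stood apart (adjusted p = 0.0183). Group means of Twist2 spanned 2.57 log2 units in controls and 0.44 in mutants, or 0.82 in mutants without both arrays that stood apart. The 5 highest groups overlapped their neighbours in the order of levels.

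Tfap2b (probe set 1435670_at), the AP-2 gene mutated in a human syndrome of facial and heart defects, rose in a single region. In the control distal mandible it read 7.85, 7.35 and 7.47, its lowest level of the 8 groups, and in the mutants 9.99, 10.10 and 9.78. The groups lay far apart and the rise was 5.28-fold (2.40 ± 0.26 SE, limma adjusted p = 1.45e-05). Its second probe set gave 2.44. Proximal mandible controls read 8.99, 8.71 and 8.68 and mutants 9.09, 9.67 and 8.89, which overlap (0.43 ± 0.26 SE, adjusted p = 0.29). In the proximal maxilla controls read 9.70, 9.69 and 10.25 and mutants 10.62, 10.59 and 9.58 (0.38 ± 0.26 SE, adjusted p = 0.382). The mutant array at 9.58 is number 3, and without both arrays that stood apart the change was 0.73 (adjusted p = 0.0394). The distal maxilla read 10.95, 10.84 and 10.76 in controls and 11.02, 11.17 and 10.27 in mutants (-0.03 ± 0.26 SE, adjusted p = 0.96).

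Tfap2a (probe set 1421996_at), needed for facial closure, rose in 3 regions. Proximal mandible controls read 8.34, 7.34 and 8.07 and mutants 9.29, 9.36 and 8.87, a 2.39-fold rise (1.26 ± 0.20 SE, limma adjusted p = 0.000236). Proximal maxilla controls read 8.71, 8.20 and 8.66 and mutants 9.95, 9.46 and 9.76, a 2.30-fold rise (adjusted p = 0.00124). Distal mandible controls read 9.65, 9.36 and 9.38 and mutants 10.40, 10.49 and 10.31, a 1.91-fold rise (adjusted p = 0.0041). All mutant arrays lay above the controls of these regions. In the distal maxilla, where the gene was highest, controls at 10.91, 10.39 and 10.70 and mutants at 10.54, 10.47 and 10.61 overlapped (-0.13 ± 0.20 SE, adjusted p = 0.734). The second Tfap2a probe set, 1426048_s_at, gave changes of the same sign in all 4 regions, and the third, 1421995_at, also did but lay near the filter level.

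Tfap2c, an AP-2 gene of trophoblast and epidermis, rose in 1 region. Proximal mandible controls read 8.53, 8.15 and 8.14 and mutants 9.21, 9.69 and 8.59, a 1.85-fold rise (0.89 ± 0.25 SE, limma adjusted p = 0.0158). Mutant 3 lay just above the highest control, and the call was lost without control 2, control 3 or mutant 2 of that region (adjusted p = 0.0621, 0.058 and 0.11). The call was also lost with only the arrays compared (adjusted p = 0.0539). Distal mandible controls read 9.90, 9.72 and 9.61 and mutants 10.46, 10.73 and 10.22. These groups lay apart, but the change of 0.72 ± 0.25 SE missed the threshold (adjusted p = 0.0547) and passed it without both arrays that stood apart (adjusted p = 0.0323) and narrowly with the replicate block (adjusted p = 0.05 as rounded). It also passed with array weights (adjusted p = 0.00495) and with only the arrays compared (adjusted p = 0.00632). The mean of probe sets (adjusted p = 0.0347) and a filter at the 60th percentile (adjusted p = 0.048) gave a call too. Proximal maxilla controls read 8.88, 8.43 and 8.68 and mutants 9.33, 8.75 and 9.74, and distal maxilla controls 10.07, 9.80 and 10.38 and mutants 9.49, 9.44 and 9.90. Both pairs overlap, with changes of 0.61 (adjusted p = 0.121) and -0.48 (adjusted p = 0.28). The proximal maxilla change was 0.38 without both arrays that stood apart (adjusted p = 0.456) and 0.87 without mutant proximal maxilla 2, where it passed (adjusted p = 0.0349). In the average over regions Tfap2c rose by 0.44 (adjusted p = 0.00878), which did not hold with the replicate number as a random block (adjusted p = 0.0758). The main probe set, 1436392_s_at, carries the suffix used for probe sets shared by several transcripts. The other probe sets gave 0.57 and 0.79 in the proximal mandible and 0.89 and 0.73 in the distal mandible.

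Alx4 (probe set 1421737_at), which patterns skull and limb, was close to the filter level of 6.33 to 6.47 in every group, so its differences may be understated and are given without folds. In the distal mandible controls read 6.61, 6.72 and 6.60 and mutants 7.49, 7.26 and 7.05. Alx4 rose there by 0.62 ± 0.10 SE (limma adjusted p = 0.000598). In the proximal maxilla controls read 6.203, 6.297 and 6.197, under the filter level, and mutants 6.66, 6.74 and 6.76, a rise of 0.49 ± 0.10 SE (adjusted p = 0.00613). With the arrays of that region alone the latter had an adjusted p of 0.0569. The mutants also lay above the controls in the distal maxilla, at 7.04, 6.86 and 6.76 against 6.64, 6.51 and 6.55 (0.32, adjusted p = 0.102). Proximal mandible arrays read 6.32, 6.38 and 6.52 in controls and 6.41, 6.59 and 6.61 in mutants and overlapped (0.13, adjusted p = 0.428).

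Alx1 (probe set 1435022_at), which is needed for closure of the midface and skull, varied by place far more than by genotype. Proximal mandible controls read 7.06, 7.06 and 7.31 and mutants 6.05, 7.85 and 6.92, whereas the other 6 groups had means of 11.31 to 12.72. The second Alx1 probe set was under the filter level on all 6 proximal mandible arrays, so differences that involve this region may be understated. The mutant proximal mandible had the widest spread of any group for this gene (0.90 SD). In the distal mandible controls at 11.85, 11.67 and 11.71 and mutants at 11.85, 12.32 and 11.66 overlapped (0.20 ± 0.35 SE, limma adjusted p = 0.765). In the distal maxilla controls read 12.30, 12.28 and 11.72 and mutants, all higher, 12.82, 12.85 and 12.48 (0.62, adjusted p = 0.317). In the proximal maxilla controls read 11.09, 11.45 and 11.41 and mutants 12.45, 12.61 and 11.14 (0.75, adjusted p = 0.18). The lowest of these mutants is the array that stood apart, and without both such arrays the change was 1.22 (adjusted p = 0.0325).

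Prrx1 and Prrx2 act together in jaw and limb mesenchyme. Prrx1 rose by 0.39 in the average over regions, and by region it rose in the proximal maxilla. Its controls there (probe set 1425528_at) read 12.45, 12.15 and 12.55 and mutants 12.81, 12.86 and 13.48, a 1.59-fold rise (0.67 ± 0.13 SE, limma adjusted p = 0.00258). It was 0.45 without both arrays that stood apart (adjusted p = 0.00742), and with the arrays of that region alone it did not pass (adjusted p = 0.131). All mutant arrays were above all controls in the other regions too. Distal mandible arrays read 13.076, 13.009 and 12.999 in controls and 13.36, 13.19 and 13.27 in mutants (0.24, adjusted p = 0.205). Proximal mandible arrays read 12.96, 12.86 and 12.90 in controls and 13.24, 13.20 and 13.22 in mutants (0.31, adjusted p = 0.0914). Distal maxilla arrays read 12.48, 12.37 and 12.38 in controls and 12.92, 12.62 and 12.75 in mutants (0.36, adjusted p = 0.121). Without the pair of arrays that stood apart, Prrx1 passed in these regions as well (adjusted p = 0.0457, 0.00997 and 0.0224). With only the arrays compared it passed in the distal mandible (adjusted p = 0.00897) and proximal mandible (adjusted p = 0.00524). With array weights it passed in the distal mandible (adjusted p = 0.0481) and distal maxilla (adjusted p = 0.0174). Of its other 5 probe sets, 1458004_at lay under the filter level on all 24 arrays, and the remaining 4 gave 0.66 to 0.87 in the proximal maxilla.

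Prrx2 (probe set 1432331_a_at) passed in no region. Its group means lay within 0.48 of one another, from 10.69 in the control proximal maxilla to 11.18 in the mutant distal maxilla, against a mean SD of 0.17 within groups. The largest change by region was 0.33 ± 0.14 SE in the proximal maxilla, where controls read 10.68, 10.57 and 10.83 and mutants 10.865, 10.996 and 11.218 (limma adjusted p = 0.135). The 95% interval of its average change ran from 0.0042 to 0.30. All neighbours in its order of levels overlapped.

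**Figure D2:**
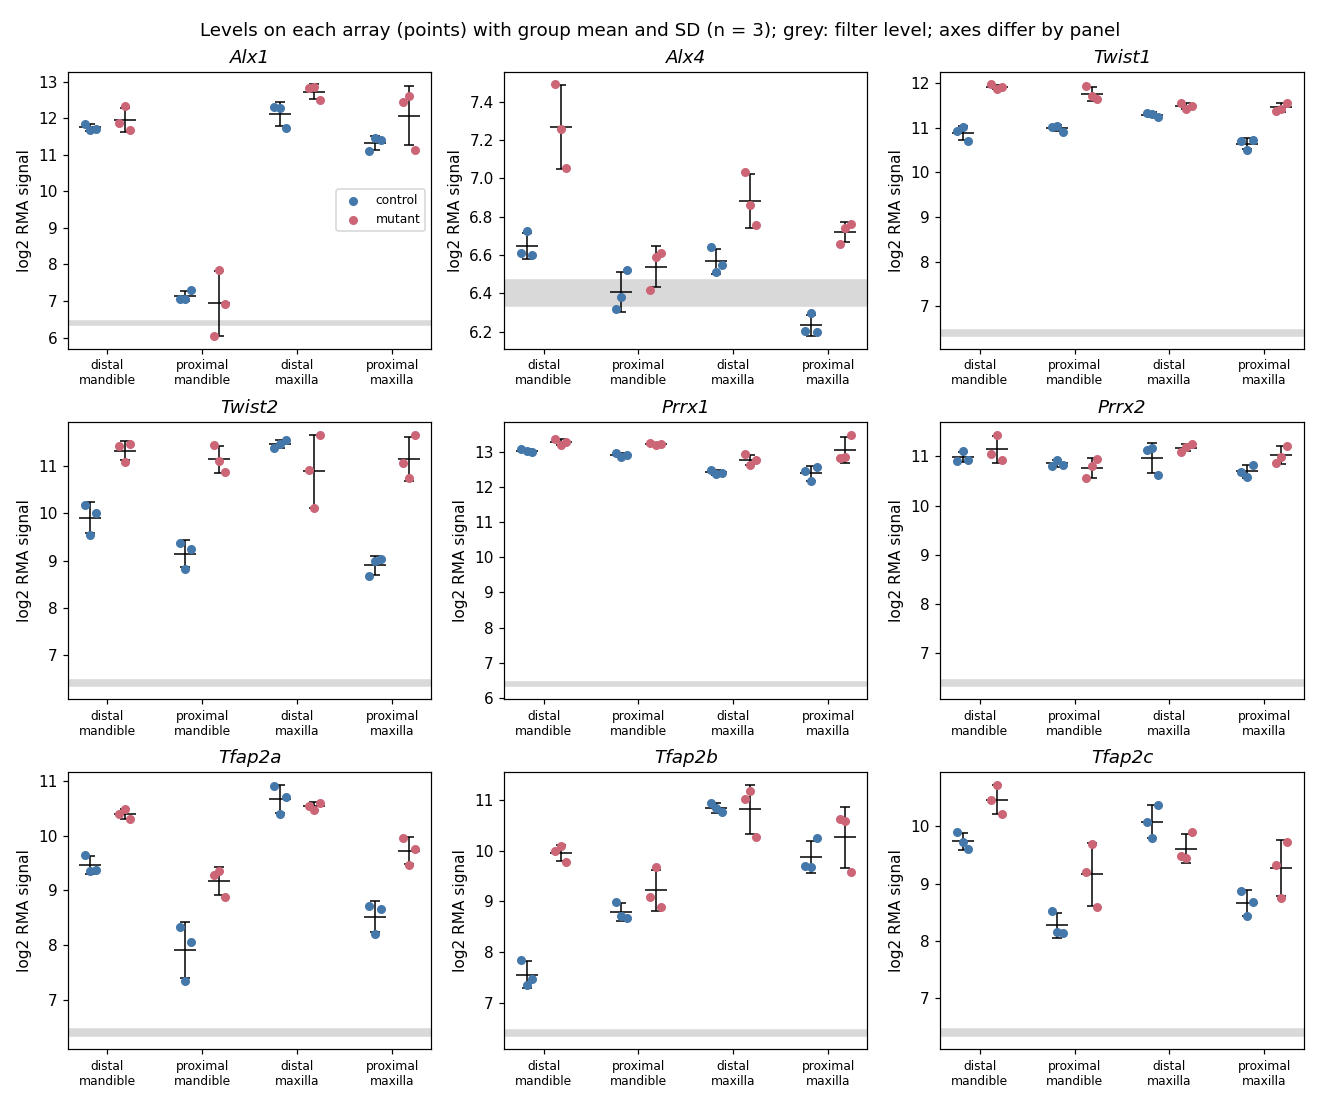
Log2 RMA signal of the main probe set of each gene on every array (points), with mean and SD (bars, n = 3), control and mutant side by side in each region; each panel has its own axis and the grey band is the filter level. Twist1 mutant arrays lie above the control arrays of each region, and Alx1 is low in the proximal mandible of both genotypes (means 7.14 and 6.94).

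The genotype effect was then compared between places. Averaged over the ends, it was larger in the mandible than in the maxilla for Twist1, by 0.40 ± 0.08 SE (limma adjusted p = 0.00691), and for Tfap2b, by 1.24 ± 0.26 SE (adjusted p = 0.00777). These 2 of 9 compare with 6.76% of all tested genes that differed in either direction. For Twist1 the difference lay at the distal ends, with changes of 1.03 in the mandible and 0.19 in the maxilla. Its changes at the proximal ends were alike, at 0.77 and 0.81. Twist2 (0.87, adjusted p = 0.0774), Tfap2c (0.74, adjusted p = 0.0839) and Tfap2a (0.56, adjusted p = 0.11) missed the threshold. With the replicate number as a block, Twist2 (adjusted p = 0.0278, or 0.0273 as a random block) and Tfap2a (adjusted p = 0.0392 and 0.0309) passed, which makes 4 of 9, and Tfap2c did not (adjusted p = 0.0734 and 0.0505). The fixed block is shared by same-numbered control and mutant arrays, and the random block lies within each genotype. Without both arrays that stood apart Twist2 (1.18, adjusted p = 0.00396) and Tfap2c (0.93, adjusted p = 0.0292) passed. Between the ends, the effect on Twist2 was lower in the distal parts. Its changes were 1.42 distally and 1.999 proximally in the mandible, and -0.57 and 2.26 in the maxilla, where the gap was wider. The difference as distal minus proximal was -1.71 ± 0.29 SE (limma adjusted p = 0.0211), a call for 1 of 9 genes where 0.115% of all tested genes passed. That call was lost without control distal mandible 1, control proximal mandible 2, control distal maxilla 3 or mutant distal mandible 2 (adjusted p from 0.051 to 0.0598), while the size stayed between -1.51 and -1.90 whichever array was left out. Tfap2a had a difference of -0.83 (adjusted p = 0.146), which passed with the replicate block (adjusted p = 0.0401, or 0.0289 as a random block), and Tfap2b one of 0.78 (adjusted p = 0.348).

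In control jaws the 9 genes also differed by place: Tfap2a and Tfap2b were lower in the mandible at both ends, and Prrx1 was higher. Between the distal ends, 5 of 9 passed, against 17.8% of all tested genes: Prrx1 was 1.54-fold higher in the mandible (limma adjusted p = 0.00192), and Tfap2b 9.81-fold (9.64e-08), Twist2 2.94-fold (0.000887), Tfap2a 2.31-fold (0.000415) and Twist1 1.33-fold (0.00175) lower. The control values are those given above. Between the proximal ends, 5 of 9 passed, against 26.6%. There Prrx1 (1.44-fold, adjusted p = 0.00418) and Twist1 (1.27-fold, 0.00425) were higher in the mandible, and Alx1 (18.0-fold, 4.3e-07), Tfap2b (2.13-fold, 0.00436) and Tfap2a (1.52-fold, 0.0331) lower. The last call was lost under several alternatives, among them without control proximal mandible 2 (-0.32, adjusted p = 0.238). Twist1 was thus lower in the mandible distally and higher proximally. The second comparison by place was between ends within a control jaw. In the mandible 4 of 9 passed, against 5.45% of all tested genes: Alx1 was 24.3-fold (adjusted p = 2.3e-07), Tfap2a 2.92-fold (0.000125) and Tfap2c 2.76-fold (0.00124) higher distally, and Tfap2b 2.36-fold lower (0.00768). In the maxilla 6 of 9 passed, all higher distally, against 10.9%. They were Twist2 (5.92-fold, 7.54e-06), Tfap2a (4.42-fold, 1.5e-06), Tfap2c (2.68-fold, 0.000803), Tfap2b (1.96-fold, 0.022), Twist1 (1.57-fold, 3.01e-05) and Alx4 (0.33 in log2, 0.0449). The Alx4 call was lost with the replicate block (adjusted p = 0.0513) and whichever of the 6 arrays was left out (adjusted p from 0.0526 to 0.132), and the Tfap2b call in 4 of the 6 cases (adjusted p from 0.0623 to 0.0936): without control distal maxilla 1 or 3, or control proximal maxilla 1 or 2.

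**Figure D3:**
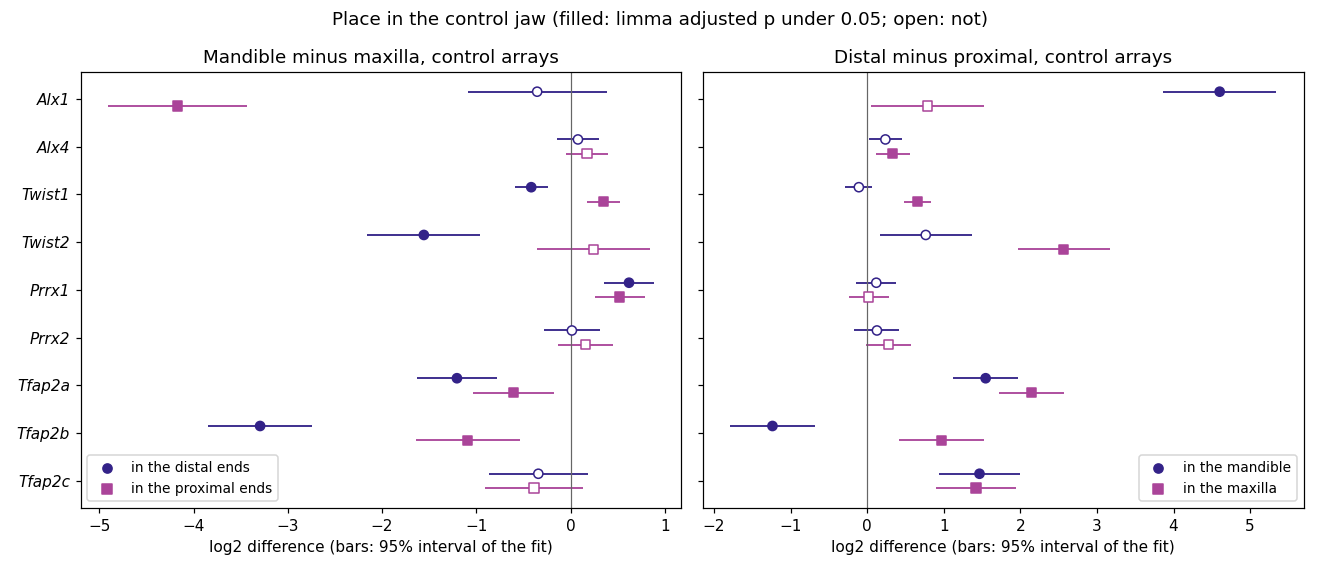
Log2 differences in control arrays between mandible and maxilla (left) and between distal and proximal ends (right) for each gene, with 95% intervals of the limma fit (bars); filled points have an adjusted p under 0.05. Alx1 stands out in the proximal jaw comparison (-4.17) and in the mandible ends (4.60), and Tfap2b in the distal jaw comparison (-3.29).

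Pieces of jaw hold many cell types, and in such bulk RNA fewer cells of a type and less RNA per cell cannot be told apart. AP-2 genes are also active in epithelium, and the 13 epithelium markers tested moved with them in part. In mutants 2 of 13 rose in the distal mandible, where 8.02% of all tested genes rose. In the proximal mandible 6 of 13 rose, against 9.56%, and in the proximal maxilla 6 of 13, against 5.75%. In the distal maxilla 0 of 13 rose, against 1.84%, and none of the 13 fell in any region. The proximal parts were unlike beyond their equal counts: all 13 markers had positive changes in the proximal mandible (median 0.86), but only the 6 that rose did in the proximal maxilla (median -0.07). In the distal maxilla 0 of 13 had positive changes (median -0.39). In the average over the 4 regions 7 of the 13 rose, where 25.2% of all tested genes rose. Among the 7 were Krt5, Krt14 and Trp63 of basal epithelium (0.81, 0.74 and 0.64), while Epcam (-0.04, limma adjusted p = 0.831) and Cdh1 (0.13, adjusted p = 0.274) did not pass. The mean level of the 13 markers ranged from 9.19 to 9.84 over control and 10.25 to 10.70 over mutant proximal mandible arrays. It was 10.69 to 10.94 and 10.79 to 11.29 in the distal mandible, 9.48 to 10.42 and 10.52 to 10.67 in the proximal maxilla, and 11.41 to 11.97 and 11.04 to 11.31 in the distal maxilla. Of these 13 markers, 9 passed as higher distally in each control jaw and 0 as lower. Differences of any size were positive for 13 in the mandible and 11 in the maxilla. Of all tested genes, 5.45% differed between the ends in either direction in the mandible and 10.9% in the maxilla. Across 24 arrays, which share groups, the marker mean correlated with Tfap2a at r = 0.931, Tfap2c at 0.842, Twist2 at 0.704, Alx1 at 0.633, Alx4 at 0.485, Tfap2b at 0.448, Prrx2 at 0.439, Twist1 at 0.423 and Prrx1 at -0.056. After the group means were taken out, r was 0.551 for Tfap2a, 0.456 for Tfap2c and 0.283 for Prrx1, and lay between -0.254 (Alx4) and 0.135 (Twist1) for the other 6. The part of epithelium in these results was not tested.

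**Figure D4:**
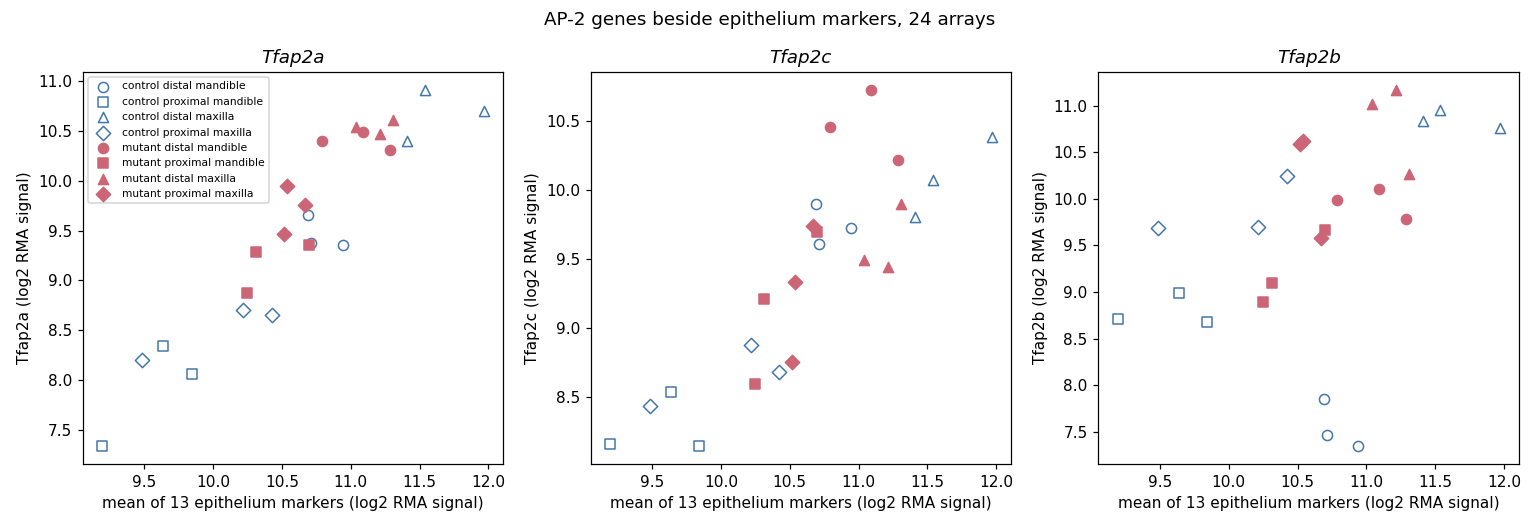
Log2 RMA signal of Tfap2a, Tfap2c and Tfap2b (vertical) against the mean of 13 epithelium markers (horizontal) on 24 arrays, open for control and filled for mutant, with a symbol for each region. Of these 3, Tfap2a follows the marker mean most closely (r = 0.931), and Tfap2b least (r = 0.448).

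Markers of bone, cartilage, muscle and macrophages were lower in mutants in the average over regions, but those of other tissues mostly were not. All 6 bone markers tested fell, as did 8 of 9 cartilage markers, 5 of 9 muscle markers and 6 of 6 macrophage markers, where 15.3% of all tested genes fell. Of 6 glia and melanoblast markers 3 rose and 0 fell, where 25.2% of all tested genes rose. Of 6 neuron markers 0 rose and 0 fell, and of 6 endothelium markers 0 rose and 1 fell. In the distal mandible, where Tfap2b rose, 6 of 6 bone, 7 of 9 cartilage, 7 of 9 muscle and 5 of 6 macrophage markers fell, against 7.98% of all tested genes. The mean of the bone markers there was 11.36 to 11.68 per control array and 8.35 to 9.09 per mutant array. The muscle mean was 10.24 to 11.29 and 7.06 to 8.88. In the proximal mandible 5 of 6 bone, 3 of 9 cartilage, 2 of 9 muscle and 5 of 6 macrophage markers fell, against 10.4%. The proximal maxilla, where 5 of the 9 factors rose, differed: 8 of 9 cartilage and 2 of 6 bone markers fell but 0 of 9 muscle and 0 of 6 macrophage markers, against 4.79%, and the muscle markers had a median change of 0.27. In the distal maxilla 0 of 6 bone, 1 of 9 cartilage, 0 of 9 muscle and 0 of 6 macrophage markers fell, against 1.12%. The part of these tissues in the results was not tested.

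Genes that work with these factors were counted in the average over the 4 regions, where 25.2% of all tested genes rose and 15.3% fell. Of 13 tested partners, inhibitors and cofactors, 11 rose and 0 fell, with a median change of 0.26. They include the E proteins that pair with Twist, Tcf3 (0.35 ± 0.04 SE, limma adjusted p = 4.82e-07), Tcf4 (0.22, adjusted p = 0.000883) and Tcf12 (0.12, adjusted p = 0.00746). Id1, an inhibitor that binds E proteins, rose by 0.37 (adjusted p = 5.53e-08). The AP-2 coactivator gene Cited2 rose by 0.47 (adjusted p = 3.26e-07) and the AP-2 inhibitor gene Kctd1 by 0.33 (adjusted p = 0.00462). Of 6 tested relatives in the same families, 2 rose, Shox2 by 0.84 (adjusted p = 0.000437) and Hand2 by 0.49 (adjusted p = 0.0332). Another 2 fell: the tendon factor Scx by 0.83 (-0.83, adjusted p = 1.81e-06) and the muscle factor Msc by 0.97 (-0.97, adjusted p = 0.00397). Hand1 differed by -0.04 (adjusted p = 0.657). Of 27 other crest and mesenchyme factors, 13 rose and 0 fell, with a median of 0.27. Among them Foxd1 rose by 0.92, Msx2 by 0.81, Nr2f1 by 0.72 and Meis2 by 0.67 (adjusted p from 1.94e-06 to 0.00222), and Msx1 differed by 0.23 (adjusted p = 0.326). By region, 3 of the 27 rose and 3 fell in the distal mandible (median 0.0033), where 8.02% of all tested genes rose and 7.98% fell. In the proximal mandible 6 rose, against 9.56%, in the distal maxilla 3, against 1.84%, and in the proximal maxilla 5, against 5.75%, and 0 fell in these regions.

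Among the 9 genes, levels over the 24 arrays were most alike for Tfap2a and Tfap2c (r = 0.87), Twist1 and Twist2 (0.81) and Twist2 and Tfap2a (0.80). Of all other tested genes, the nearest to Twist1 was Axin2 (r = 0.91), a feedback target of Wnt signalling. The nearest to Twist2 were Cxcl14, Vgll3 and Apcdd1 (0.93 each). Tfap2a was nearest to Vav3 (0.96), the epidermal keratin Krt1 (0.94) and Wnt5a (0.94), and Tfap2c to Cacna2d3 (0.96), the enamel gene Tuft1 (0.94) and Tmprss13 (0.93). Tfap2b was nearest to Plk2 (0.89), Prrx1 to Mab21l2 (0.91), Alx1 to Susd4 (0.90), Alx4 to Rgs9bp (0.89) and Prrx2 to Arrdc2 (0.83). These values describe arrays that share groups and carry no test.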

How the data were processed

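Total RNA (5 µg) from dissected jaw pieces was labelled and hybridised to 1-colour oligonucleotide arrays, 24 in all, per the labels' protocols. The authors deposited log2 signals made by RMA, per the submitters' processing notes; RMA also quantile-normalizes arrays, so a change shared by most genes is not seen, and the log base was read from the value range of 3.29 to 14.86. Probe sets carry no detection calls.

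Of 45101 probe sets, 34945 had 1 gene symbol and 932 several, which were not used. The brightest probe set stood for its gene, which entered the tests if 3 or more arrays had it above their 40th percentile, the filter level (log2 6.33 to 6.47). The model, in limma 3.58.1 (R 4.3.3, eBayes with trend), had a mean for each of the 8 groups and used every array. All tests were two-sided, 11 comparisons were made, and each was adjusted over 13942 genes. The fit was tested on simulated data. Plots were drawn with matplotlib 3.10.9 from tables made in Python 3.11.15. RefSeq start regions came from GRCm38.p6 tables.

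The 9 genes, the lists and the tests were chosen with earlier results of these data known. All 9 were named, with up to 4 called genes of largest change per list, a few fixed genes (Hand1, Hand2, Tcf3, Tcf4, Tcf12, Msx1 and Msx2) and up to 3 genes of highest correlation per member. Krt5, Krt14, Trp63, Epcam and Cdh1 were named after their values were seen. Another 8 listed genes were not analysed here.

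Replicate numbers were checked by correlating residuals of same-numbered arrays. Between mutant and control, over all pairs of regions, the mean r was 0.094, 0.068 and 0.177 for the 3 numbers. Within a region r ran from -0.169 (proximal maxilla, number 2) to 0.368 (distal maxilla, number 3). Whether the numbers pair genotypes is thus not settled, and the main fit does not use them. Over the regions of a genotype the mean r was 0.454, 0.182 and 0.138 in controls and 0.354, 0.415 and 0.295 in mutants. It was above 0.1 for every number, so same-numbered regions of a genotype deviated together. What the numbers mark is not stated. In comparisons of genotypes the fixed block gave same-numbered control and mutant arrays a shared effect, which treats them as matched. In comparisons of control arrays it was fitted within each genotype. The random block grouped same-numbered arrays of each genotype. Values with either block stand beside the results whose call it changed. Alternatives were array weights, a further quantile normalization, other filters, the mean of probe sets, no trend, only the arrays compared, a fixed or random replicate block, and leaving out each array or both arrays that stood apart.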

Additional observations from a re-analysis of the deposited data

Results flagged for a closer look

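A test of the difference itself marked 3 results whose genotype effect was not the same in all places. The effect on Twist1 was larger in the mandible than in the maxilla by 0.4008 in log2 (limma adjusted p = 0.00691), averaged over the ends. Its changes were 1.03 and 0.77 at the distal and proximal ends of the mandible against 0.19 and 0.81 in the maxilla, so the difference rests on the distal ends. The effect on Tfap2b differed between the jaws by 1.2374 (adjusted p = 0.00777), with 2.40 and 0.43 in the mandible against -0.03 and 0.38 in the maxilla, so it rests mainly on the distal mandible. The effect on Twist2 differed between the ends by -1.7058 (adjusted p = 0.0211), with 1.42 and -0.57 distally against 1.999 and 2.26 proximally. No cause of these differences was tested.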

How the results depend on the processing

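Of 2005 changes recomputed under alternatives, 1903 kept their direction and side of the threshold, 31 lost and 47 gained a call, and 24 turned sign. Those that turned had changes of 0.2053 or less in size, and 0 of them were called. Counts of genes called moved as follows. In the distal maxilla 0 became 2 with array weights (Alx4 and Prrx1) and 2 without both arrays that stood apart (Twist2 and Prrx1), and leaving out 1 array gave 0 to 1. In the proximal maxilla 5 became 3 with only the arrays compared. For the difference of the genotype effect between jaws, 2 became 4 with array weights and without both arrays (Twist2 and Tfap2c added), 4 with the replicate block and 4 with the random replicate block (Twist2 and Tfap2a added), and 2 to 4 with 1 array left out. Between ends, 1 became 2 with the replicate block and 2 with the random replicate block, which added Tfap2a (adjusted p = 0.0401 and 0.0289), and 0 to 1 with 1 array left out. With the replicate block in the other comparisons, Tfap2c gained a call in the distal mandible (adjusted p = 0.05 as rounded, just under the threshold) and Alx4 lost its call between the control maxilla ends (0.0513). In the average effect Tfap2c lost its call with the random replicate block (limma adjusted p = 0.0758). Alx1 gained a call there with array weights (adjusted p = 0.0125) and without both arrays (adjusted p = 0.0169), and leaving out 1 array gave 7 to 8 genes called. With the regions of each number averaged first, an alternative chosen after seeing the data, no call in the average effect changed.

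Sign turned in these cases, all with a change of 0.2053 or less in size in the main fit. Tfap2b in the distal maxilla was 0.0822 with array weights, 0.0056 with the mean of probe sets, 0.2455 without both arrays, and -0.2052 to 0.2455 with 1 array left out. Alx1 between ends was -0.0972 with array weights, -0.0373 without both arrays and -0.0958 to 0.3631 with 1 left out. Prrx2 between ends was -0.0098 with array weights and -0.0269 to 0.1128. Prrx2 between control distal ends was -0.0124 after quantile normalization, -0.1177 with array weights and -0.1615 to 0.1143. With 1 array left out, Alx1 in the proximal mandible ran from -0.659 to 0.2375, Prrx2 there from -0.1776 to 0.0147, Alx4 between jaws from -0.0803 to 0.0287 and Prrx1 between control maxilla ends from -0.0947 to 0.1059. The cause was not tested. Groups of 3 arrays limit precision, and Alx4 lies near the filter level.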
